A study of Mus musculus with 6 samples.

Results

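The genes of the RNA polymerase I, II and III subunits were examined in the epididymal white adipose tissue (WAT) of refed mice that lack *Armc5* in adipocytes. They are the 28 genes, of 24346 in the table of gene expression, whose symbol is Polr1, Polr2 or Polr3 followed by letters. The rule took 5 *Polr1* genes, *Polr2a*, 12 other *Polr2* genes and 10 *Polr3* genes, and it used no measured value. The tissue came from 3 Armc5 flox and 3 AdArmc5 KO littermates that were 24 weeks old, had gone without food for 24 h and had then eaten again for 6 h. Both genotypes carried the *Armc5* allele tm1a(EUCOMM)Wtsi, made in C57BL/6N, from which *CAG-FLPe* had removed the *lacZ* and neomycin resistance cassettes so that LoxP sites remained. In AdArmc5 KO, *Adipoq-Cre* cut this allele in adipocytes, whereas the blood vessel, stromal and immune cells of the WAT keep the gene. Each library was made with a stranded kit from the polyadenylated RNA of the tissue of 1 mouse and read from both ends.

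RNA polymerase I makes the large ribosomal RNAs, RNA polymerase II makes mRNAs and many small RNAs, and RNA polymerase III makes tRNAs and the smallest ribosomal RNA. Each enzyme is built around its own pair of large subunits, which form the catalytic center, and several small subunits are shared between the enzymes. ARMC5 is the substrate receptor of a CUL3 ubiquitin ligase that marks RPB1, the product of *Polr2a* and largest part of RNA polymerase II, for degradation. RNA-seq measures the mRNA of these genes and not the protein on which the ligase acts.

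*Polr2a* (NCBI Gene 20020) lies on the minus strand of mouse chromosome 11 at chr11:69733997-69758633 of GRCm38.p6, the NCBI name of mm10, and no exon of another gene overlaps its exons. Promoter sequences of RefSeq on this build, 300 bases from 250 before to 50 after each annotated start, were found for 22 of the 28 subunit genes (24 windows). They were searched on both strands for GCGCA and GCGC with any 1 base between them, the site of the nuclear respiratory factor NRF-1, for TATAAA, the TATA box, and for 4 further motifs. The last 120 bases before the start are printed for *Polr2a* and for those *Polr2* genes that hold the NRF-1 letters there and whose FPKM did not overlap between the genotypes. They run 5′ to 3′ along the gene, and the capitals mark TATAAA in *Polr2a* and the NRF-1 letters in the others. Positions are chr11:69758634-69758753 (minus strand) for *Polr2a*, chr5:77310364-77310483 (plus) for *Polr2b*, chr10:80039660-80039779 (minus) for *Polr2e* and chr16:20717706-20717825 (plus) for *Polr2h*.
Polr2a: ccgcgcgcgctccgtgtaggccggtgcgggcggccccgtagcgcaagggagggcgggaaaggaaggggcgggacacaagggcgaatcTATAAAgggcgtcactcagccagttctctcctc
Polr2b: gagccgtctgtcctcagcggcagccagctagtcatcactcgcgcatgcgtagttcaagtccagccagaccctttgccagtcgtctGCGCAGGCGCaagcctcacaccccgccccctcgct
Polr2e: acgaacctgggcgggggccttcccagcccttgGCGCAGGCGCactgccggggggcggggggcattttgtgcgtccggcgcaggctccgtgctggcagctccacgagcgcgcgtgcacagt
Polr2h: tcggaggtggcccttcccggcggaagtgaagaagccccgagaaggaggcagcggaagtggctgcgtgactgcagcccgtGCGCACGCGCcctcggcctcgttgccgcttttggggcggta
The TATAAA of *Polr2a* begins 33 bases before the start. The NRF-1 letters begin 35 bases before it in *Polr2b*, 88 bases in *Polr2e* and 41 bases in *Polr2h*, and *Polr2f* holds them just after its start. TATAAA was in 2 of the 24 windows (*Polr2a* and *Polr2c*) and in 13.6% of the 32851 promoter windows of all genes. In *Polr2c* these letters begin 151 bases before the start, much farther from it than in *Polr2a*. The NRF-1 letters were in 4 of the 24 windows and in 4.6% of all windows. Also searched were GGGCGG, the GC box (15 of 24 and 35.7% of all windows), CCGGAAG, the ETS core (7 and 8.86%), CACGTG, an E-box (4 and 7.15%), and CCAAT, the CCAAT box (7 and 37.4%), and 0 matches of different motifs shared a base. These matches describe the letters only.

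Gene expression is given as FPKM, fragments scaled to exon length and by 1 factor per library, the same as in the deposited normalized counts. This factor does not follow the number of fragments. In those counts 1 fragment stood for 1.10 in Armc5 flox replicate 2 (29257692 fragments) and 0.954 in AdArmc5 KO replicate 2 (29347680 fragments). Differences between libraries, and whether groups overlap, therefore depend on this scaling. Where the values of 3 libraries are listed for a genotype, they are those of replicates 1, 2 and 3 in that order. The libraries held 25320731 to 38311561 fragments, of which *Polr2a* took 6363 to 11430 and the subunit gene with the fewest took 183. That count, for *Polr1e*, carries a counting error of 7.39%. The adipocyte markers *Adipoq*, *Plin1*, *Fabp4* and *Cidec* were high in every library, with *Adipoq*, which encodes adiponectin, at 1896 FPKM or more. *Armc5* itself was at 5.12, 5.66 and 5.58 FPKM in the Armc5 flox libraries, and at 3.66, 4.48 and 5.82 FPKM in those of AdArmc5 KO. The last of these, referred to as the library labelled AdArmc5 KO replicate 3, was above every Armc5 flox library, so *Armc5* goes against its label. This value also holds RNA from cells other than adipocytes and from exons that Cre leaves in place. Libraries also differed in markers of neighboring tissue. The summed FPKM of 8 markers of ciliated and duct epithelium reached 389 in one Armc5 flox library (replicate 1) and 322 in one AdArmc5 KO library (replicate 2). It lay at 4.48 to 69.5 elsewhere. That of 6 markers of the vas deferens and epididymis reached 3808 in AdArmc5 KO replicate 3 and lay at 0.507 to 20.1 elsewhere. Nearly all of the 3808 was *Akr1b7* (3122 FPKM) and *Crisp1* (685 FPKM). The other markers of this list, *Defb1*, *Lcn5*, *Lcn8* and *Rnase10*, were at 0.10 to 0.53 FPKM there. In bulk tissue, fewer cells of a type and less RNA per cell cannot be told apart.

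All 28 subunit genes passed the minimum of expression (an FPKM of 1 or more in 3 libraries), among 12670 genes in all. Most subunits had slightly lower values in AdArmc5 KO, and *Polr2a* did not share that direction. The log2 fold change (AdArmc5 KO over Armc5 flox, on log2(FPKM + 1)) was below 0 for 26 of the 28 genes, against 56.5% of all genes tested, and above 0 for *Polr2a* and *Polr3k*. Every AdArmc5 KO library was below every Armc5 flox library for 9 of them (*Polr1a*, *Polr1c*, *Polr2b*, *Polr2c*, *Polr2d*, *Polr2e*, *Polr2h*, *Polr3a* and *Polr3d*), which is 32.1% of the subunits against 5.26% of all genes tested. The opposite order was found for 0 of the 28 and 3.54% of all genes. After adjustment over all genes, 0 subunits and 0% of all genes passed an adjusted p of 0.05 by limma. At an unadjusted p under 0.05, 1 subunit (*Polr2e*) was lower and 0 were higher, against 1.18% and 2.18% of all genes. No subunit is therefore called as changed.

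**Figure D1:**
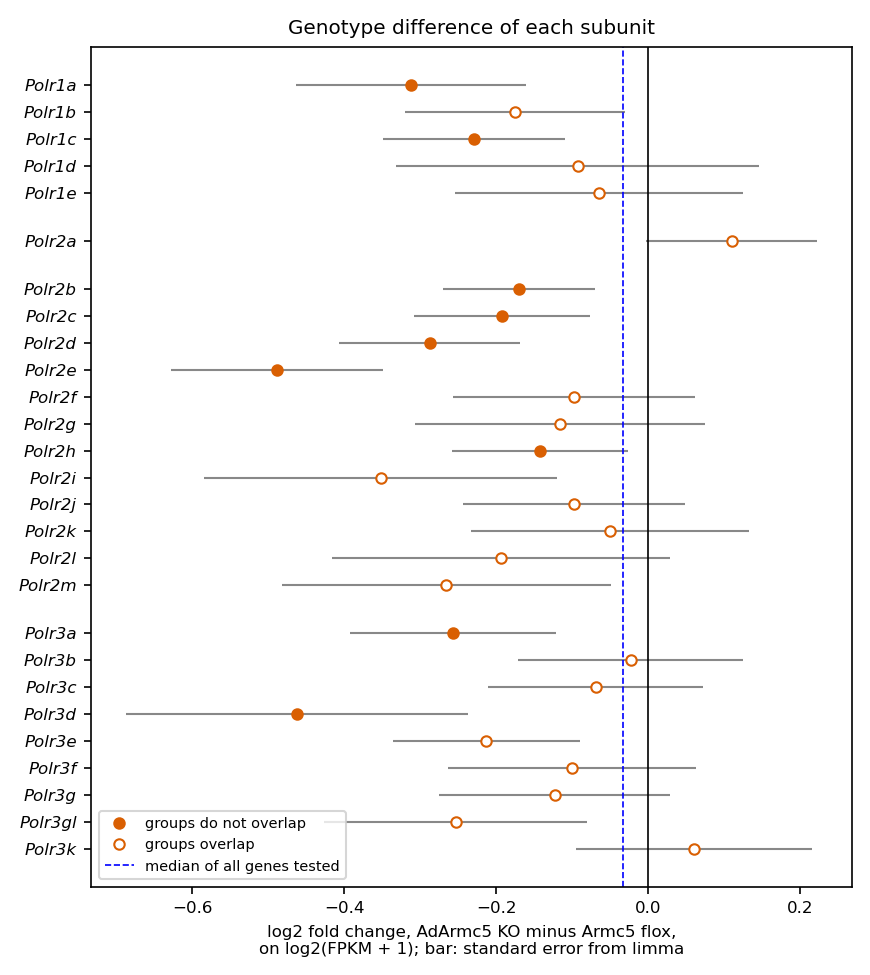
Log2 fold change of 27 subunit genes, AdArmc5 KO minus Armc5 flox, on log2(FPKM + 1), with the standard error from limma as a bar, filled points where the 3 libraries of one genotype do not overlap those of the other, and the median of all genes tested (−0.03) as a dashed line. Of the 27 points, 25 lie left of 0, *Polr2a* lies right of 0 at 0.11 and *Polr2e* lies farthest left at −0.49.

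Gene expression of *Polr2a*, which encodes the catalytic subunit with the long C-terminal repeat domain that is phosphorylated during transcription, overlapped between the genotypes. It was at 37.4, 41.6 and 36.9 FPKM in the Armc5 flox libraries and at 40.5, 41.8 and 43.1 FPKM in the AdArmc5 KO libraries. Armc5 flox replicate 2 lay between AdArmc5 KO replicates 1 and 2, and the other Armc5 flox libraries lay below. The mean was 38.7 ± 2.57 FPKM for Armc5 flox against 41.8 ± 1.27 FPKM for AdArmc5 KO (SD, n = 3 each). The log2 fold change was 0.11 with a standard error of 0.11 and a 95% confidence interval of −0.16 to 0.38 (limma, unadjusted p = 0.37, adjusted p = 0.98). This interval leaves room for a modest difference in either direction.

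Among the subunits that only RNA polymerase II holds is RPB2, encoded by *Polr2b*, the partner of RPB1 in the catalytic center. *Polr2b* was at 21.7, 21.0 and 21.7 FPKM in the Armc5 flox libraries and at 18.7, 19.03 and 19.2 FPKM in the AdArmc5 KO libraries. Both groups were tight, with means of 21.5 ± 0.412 and 18.96 ± 0.240 FPKM (SD, n = 3 each), and its log2 fold change was −0.17 with a standard error of 0.10 (limma, unadjusted p = 0.14, adjusted p = 0.98). The exons of *Polr2b* overlap those of *Igfbp7* on the opposite strand. The libraries were stranded, but whether the counting used strand is not given in the sources used here, so the level of *Polr2b* is uncertain to that extent.

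*Polr2c*, which encodes RPB3 of the assembly platform, was at 26.6, 28.2 and 30.1 FPKM in the Armc5 flox libraries and at 26.5, 24.1 and 23.3 FPKM in the AdArmc5 KO libraries. Its groups were nearly in contact, at 26.6 and 26.5 FPKM, and its exons overlap those of *Dok4* on the opposite strand. *Polr2d*, which encodes RPB4 of the stalk, was at 22.5, 22.5 and 21.9 FPKM in the Armc5 flox libraries and at 20.4, 16.9 and 17.2 FPKM in the AdArmc5 KO libraries. The Armc5 flox libraries were close to each other here, and the log2 fold change was −0.29 with a standard error of 0.12 (limma, unadjusted p = 0.050, adjusted p = 0.98). *Polr2g*, which encodes RPB7, the partner of RPB4 in the stalk, did not show that separation, with 32.4 to 50.9 FPKM in Armc5 flox and 33.04 to 38.5 FPKM in AdArmc5 KO.

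The other *Polr2* genes particular to this enzyme overlapped between the genotypes. *Polr2i*, which encodes RPB9, was at 25.9 to 34.2 FPKM in Armc5 flox and 16.1 to 27.7 FPKM in AdArmc5 KO, and its lowest value was that of AdArmc5 KO replicate 1 alone. Without that library its log2 fold change was −0.12 in place of −0.35. The exons of *Polr2i* overlap those of *Tbcb* and the exons of *Polr2j* those of *Lrwd1*, each on the opposite strand, so their levels carry the same limit as that of *Polr2b*. *Polr2j*, which encodes RPB11, the partner of RPB3, was at 56.0 to 72.4 FPKM in Armc5 flox and 53.7 to 59.5 FPKM in AdArmc5 KO. *Polr2m* encodes Gdown1, a protein that binds a part of the RNA polymerase II pool and is not one of its core subunits. It was at 58.9 to 91.9 FPKM in Armc5 flox and 48.9 to 65.7 FPKM in AdArmc5 KO, and the highest value was that of Armc5 flox replicate 3.

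**Figure D2:**
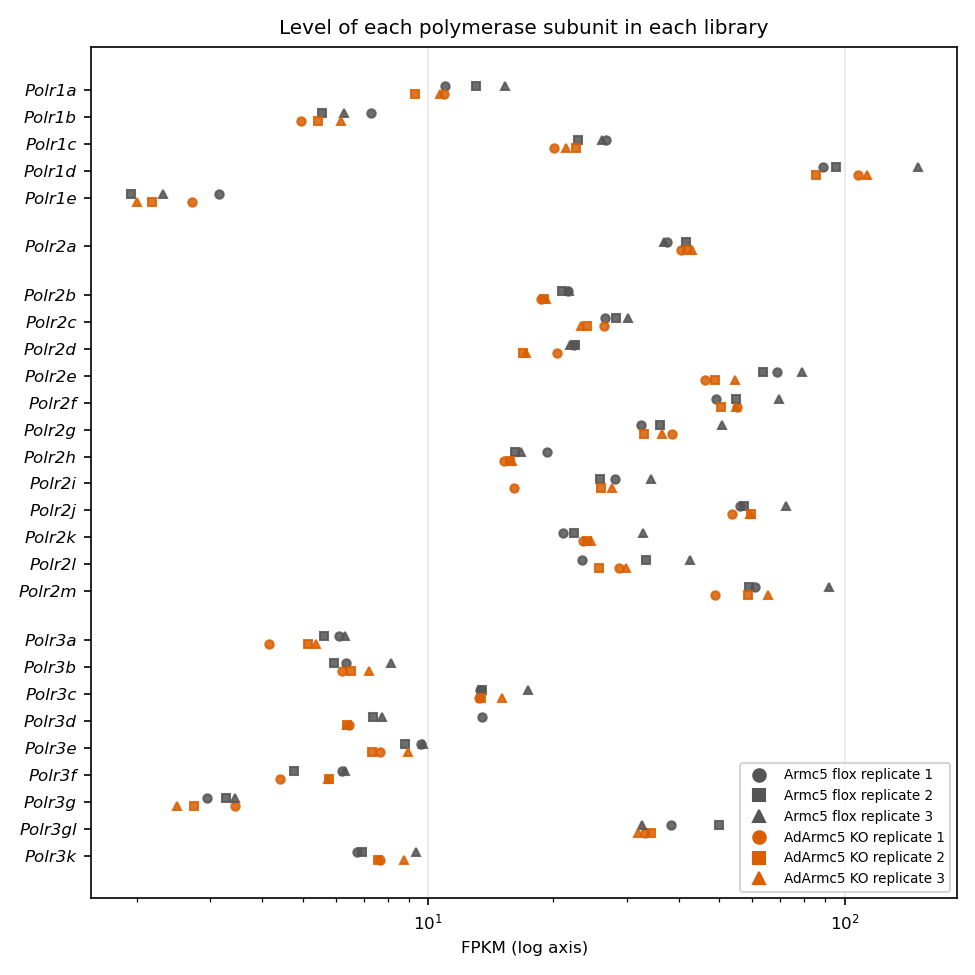
FPKM (log axis) of 27 subunit genes in each of the 6 libraries, with Armc5 flox in gray, AdArmc5 KO in orange and 1 marker shape per replicate number. *Polr1d* was the highest and *Polr1e* the lowest, and the gray triangle of Armc5 flox replicate 3 is the highest point for 18 of them.

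Among the 5 subunits that all 3 polymerases share (*Polr2e*, *Polr2f*, *Polr2h*, *Polr2k* and *Polr2l*), *Polr2e*, which encodes RPB5, had the lowest log2 fold change of all 28 genes. *Polr2e* was at 68.8, 63.7 and 79.2 FPKM in the Armc5 flox libraries and at 46.3, 48.8 and 54.7 FPKM in the AdArmc5 KO libraries. The mean of 49.9 ± 4.29 FPKM in AdArmc5 KO was 29.3% below that of 70.6 ± 7.90 FPKM in Armc5 flox (SD, n = 3 each). The lowest Armc5 flox library was above the highest AdArmc5 KO library by more than the SD of either group. Its log2 fold change was −0.49 with a standard error of 0.14 and a 95% confidence interval of −0.83 to −0.15 (limma, unadjusted p = 0.012, adjusted p = 0.98), rank 102 by p of the genes tested. It lay between −0.56 and −0.40 when each library was left out in turn, and the adjusted p was 0.78 or more under every alternative tried.

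*Polr2h*, which encodes RPB8, also had groups that did not overlap, with 19.3, 16.2 and 16.7 FPKM in the Armc5 flox libraries and 15.2, 15.7 and 15.9 FPKM in the AdArmc5 KO libraries. The nearest values of the groups were 15.9 and 16.2 FPKM, and without Armc5 flox replicate 1 the log2 fold change went from −0.14 to −0.07. Its exons overlap those of *Clcn2* on the opposite strand, as those of *Polr2f* overlap 1700088E04Rik. *Polr2f*, which encodes RPB6, was at 49.2, 55.0 and 69.6 FPKM in the Armc5 flox libraries and at 55.2, 50.6 and 55.0 FPKM in the AdArmc5 KO libraries. Only Armc5 flox replicate 3 stood above the range of AdArmc5 KO for this gene.

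*Polr2k*, which encodes RPB12, was at 21.1, 22.4 and 32.8 FPKM in the Armc5 flox libraries and at 23.5, 24.1 and 24.6 FPKM in the AdArmc5 KO libraries. *Polr2l*, which encodes RPB10, was at 23.5, 33.4 and 42.5 FPKM in the Armc5 flox libraries and at 28.8, 25.7 and 29.8 FPKM in the AdArmc5 KO libraries. As for *Polr2f*, the highest value of both was that of Armc5 flox replicate 3. Without that library their log2 fold changes were 0.14 and 0.0016, so their direction rests on it.

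*Polr1c* and *Polr1d* encode the pair of subunits that polymerases I and III share, which take the place of RPB3 and RPB11. *Polr1c* was at 26.8, 22.9 and 26.1 FPKM in the Armc5 flox libraries and at 20.0, 22.7 and 21.4 FPKM in the AdArmc5 KO libraries. Its log2 fold change was −0.23 with a standard error of 0.12 (limma, unadjusted p = 0.10, adjusted p = 0.98), and the nearest values of the groups differed by less than the SD of either group. *Polr1d* was at 88.6, 95.5 and 149.8 FPKM in the Armc5 flox libraries and at 107.9, 85.6 and 113.1 FPKM in the AdArmc5 KO libraries. It was the most abundant subunit transcript, its groups overlapped, and its log2 fold change of −0.09 was 0.14 without Armc5 flox replicate 3. Of the 7 shared subunits, 3 (*Polr2e*, *Polr2h* and *Polr1c*) had every AdArmc5 KO library below every Armc5 flox library, against 5.26% of all genes tested.

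Of the genes particular to RNA polymerase I, *Polr1a*, which encodes its largest subunit, was at 11.01, 12.9996 and 15.3 FPKM in the Armc5 flox libraries and at 10.9, 9.30 and 10.7 FPKM in the AdArmc5 KO libraries. The highest AdArmc5 KO library and the lowest Armc5 flox library were nearly level, and the log2 fold change was −0.31 with a standard error of 0.15 (limma, unadjusted p = 0.083, adjusted p = 0.98). *Polr1b*, which encodes the second large subunit, was at 7.28, 5.56 and 6.29 FPKM in the Armc5 flox libraries and at 4.95, 5.43 and 6.19 FPKM in the AdArmc5 KO libraries. *Polr1e*, which encodes a subunit of the initiation and elongation module, was at 1.93 to 3.15 FPKM in Armc5 flox and 1.999 to 2.71 FPKM in AdArmc5 KO. The groups of the last pair overlapped.

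Of the genes particular to RNA polymerase III, *Polr3a*, which encodes its largest subunit, was at 6.11, 5.61 and 6.33 FPKM in the Armc5 flox libraries and at 4.15, 5.15 and 5.37 FPKM in the AdArmc5 KO libraries. Its log2 fold change was −0.26 with a standard error of 0.14 (limma, unadjusted p = 0.10, adjusted p = 0.98). *Polr3b*, which encodes the second large subunit, was at 6.34, 5.96 and 8.15 FPKM in the Armc5 flox libraries and at 6.20, 6.54 and 7.20 FPKM in the AdArmc5 KO libraries, and its log2 fold change was −0.02. Of the 3 pairs of large subunits, *Polr1a*, *Polr2b* and *Polr3a* had every AdArmc5 KO library below every Armc5 flox library. This order was found for 5.26% of all genes tested. The groups of *Polr1b*, *Polr2a* and *Polr3b* overlapped. The difference between the 2 members of a pair was not tested.

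*Polr3d*, which encodes a subunit of the module for termination and reinitiation, was at 13.5, 7.39 and 7.77 FPKM in the Armc5 flox libraries and at 6.45, 6.40 and 6.38 FPKM in the AdArmc5 KO libraries. The AdArmc5 KO libraries were almost equal, whereas Armc5 flox replicate 1, which held the markers of ciliated cells, stood far above the others. The log2 fold change was −0.46 with a standard error of 0.22 (limma, unadjusted p = 0.083, adjusted p = 0.98) and −0.21 without that library. The part of the epithelial RNA in this value was not tested. AdArmc5 KO replicate 2, the other library with these markers, was at 6.40 FPKM.

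Its partner *Polr3e* was at 8.78 to 9.75 FPKM in Armc5 flox and 7.33 to 8.94 FPKM in AdArmc5 KO, so that only the library labelled AdArmc5 KO replicate 3 reached into the Armc5 flox range. *Polr3c* and *Polr3f*, which encode subunits of the module that opens the promoter, were at 13.3 to 17.3 FPKM and 4.40 to 6.32 FPKM over the 6 libraries, and the groups overlapped for both. *Polr3k*, which encodes the small subunit that cleaves the transcript, was at 6.76 to 9.38 FPKM in Armc5 flox and 7.57 to 8.76 FPKM in AdArmc5 KO, with a log2 fold change of 0.06.

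*Polr3g* and *Polr3gl* are paralogs whose products take the same place in RNA polymerase III, and the first is known from stem cells and tumor cells and the second from most differentiated tissues. *Polr3g* was at 2.95, 3.28 and 3.44 FPKM in the Armc5 flox libraries and at 3.44, 2.74 and 2.49 FPKM in the AdArmc5 KO libraries. *Polr3gl* was at 38.3, 49.8 and 32.7 FPKM in the Armc5 flox libraries and at 33.1, 34.4 and 31.9 FPKM in the AdArmc5 KO libraries. The FPKM of *Polr3gl* was 9.51 to 15.2 times that of *Polr3g* in each of the 6 libraries. This ratio was 12.6 ± 2.88 in Armc5 flox and 11.7 ± 1.78 in AdArmc5 KO (SD, n = 3 each) and overlapped between them. Reads shared between the paralogs were not examined, so the low level of *Polr3g* is uncertain. The exons of *Polr3gl* also overlap those of *Gm16253* on the opposite strand.

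By the prefix of the symbol, the median log2 fold change was −0.18 over the 5 *Polr1* genes and −0.18 over the 12 *Polr2* genes without *Polr2a*. It was −0.14 over the 10 *Polr3* genes, against −0.03 over all genes tested. Values were below 0 for 5 of 5, 12 of 12 and 9 of 10 of these genes, and every AdArmc5 KO library was lower for 2, 5 and 2 of them. Over all genes tested these shares were 56.5% and 5.26%. The median of the mean FPKM was 28.5 for the *Polr2* genes without *Polr2a*, 11.7 for the *Polr1* genes and 7.91 for the *Polr3* genes. A prefix is not an enzyme, as the *Polr2* genes include *Polr2m* and the subunits that all the polymerases share. The *Polr1* genes include *Polr1c* and *Polr1d*, which polymerase III also uses. The subunits are parts of the same enzymes and were measured in the same 6 libraries, so that their counts are not those of independent genes.

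A single Armc5 flox library carried much of the direction. Armc5 flox replicate 3 had the highest FPKM of the 6 libraries for 19 of the 28 genes, and AdArmc5 KO replicate 1 the lowest for 11. Relative to the Armc5 flox mean of each gene, the median log2 ratio over the 28 genes was −0.05, −0.11 and 0.16 in the Armc5 flox libraries and −0.19, −0.19 and −0.10 in the AdArmc5 KO libraries. The second Armc5 flox value and the third AdArmc5 KO value were thus nearly level. Without Armc5 flox replicate 3, 18 of the 28 log2 fold changes were below 0, against 54.3% of all genes, and the medians were −0.11 for the *Polr2* genes without *Polr2a* and −0.07 for the *Polr3* genes, whereas that of the *Polr1* genes stayed at −0.18. Without the same library, every AdArmc5 KO library was lower for 10 of the 28 genes, against 7.73% of all genes, and higher for 2 (*Polr2k* and *Polr3k*), against 6.35%.

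Without the library labelled AdArmc5 KO replicate 3, 26 genes were below 0 and 12 had every AdArmc5 KO library lower, against 54.4% and 14.1% of all genes. The summed FPKM of 8 adipocyte markers was 32039 to 46306 in Armc5 flox, highest in replicate 3, and 24415 to 37806 in AdArmc5 KO. Of these markers, 4 were below and 4 above 0. The summed FPKM of 8 macrophage markers was 619 to 1164 in Armc5 flox and 748 to 1334 in AdArmc5 KO, with 7 above 0, 1 below 0 and 0 at an FPKM of 0 in any library. Their part in the values of the subunits was not tested.

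**Figure D3:**
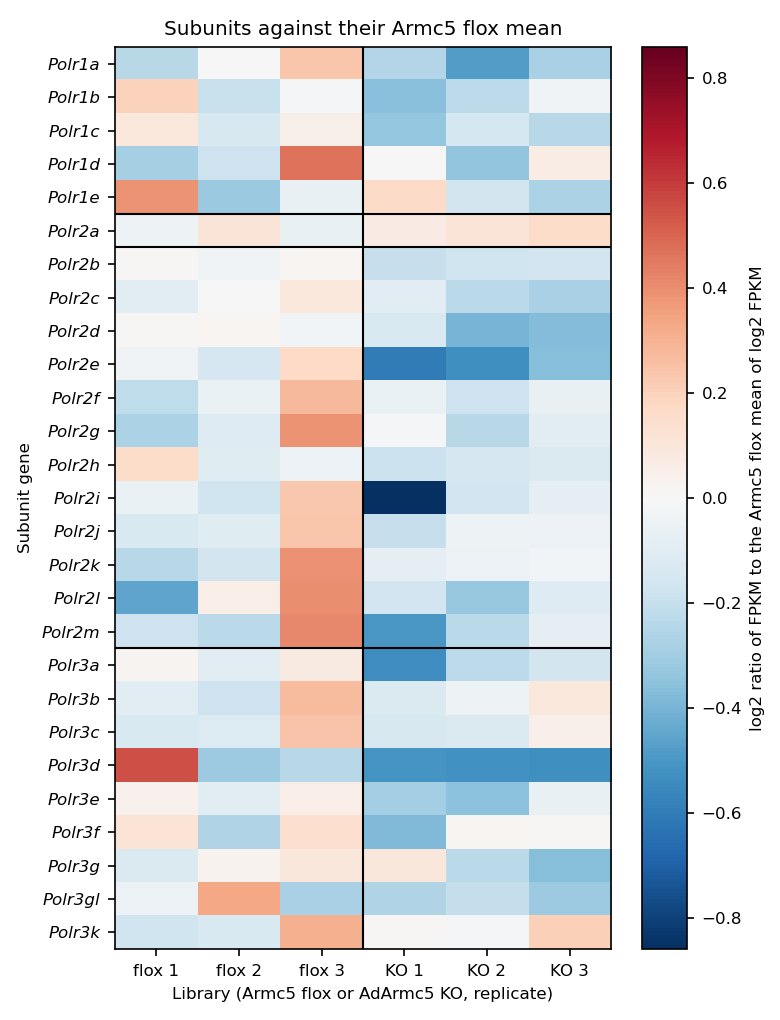
Log2 ratio of the FPKM of 27 subunit genes in each library to the Armc5 flox mean of log2 FPKM, in blue below and red above it, with lines between the *Polr1*, *Polr2* and *Polr3* genes and around *Polr2a*. The column of Armc5 flox replicate 3 is mostly red (20 of 27 genes at or above the mean) and the columns of AdArmc5 KO are mostly blue (21 to 25 of 27 genes below it), except the line of *Polr2a*.

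The level of *Polr2a* relative to its partners was described by its FPKM over the geometric mean of the FPKM of the 12 other *Polr2* genes. This ratio was 1.16, 1.25 and 0.905 in the Armc5 flox libraries and 1.37, 1.39 and 1.35 in the AdArmc5 KO libraries. The AdArmc5 KO libraries were close to each other and above every Armc5 flox library, with means of 1.37 ± 0.0154 and 1.11 ± 0.181 (SD, n = 3 each). The mean of AdArmc5 KO was 1.24 times that of Armc5 flox, and no test was made because the ratio was formed from the subunits themselves with their values known.

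The spread of the Armc5 flox group came from replicate 3, in which *Polr2a* was the lowest of the 6 libraries and most partners were the highest. Without it the ratio of the means was 1.14, the lowest value with any library left out, and the highest was 1.33 without Armc5 flox replicate 2. With the median of the partners in place of the geometric mean the ratio of the means was 1.24. Taken singly, *Polr2a* over *Polr2b*, *Polr2c*, *Polr2d*, *Polr2e* or *Polr2h* was higher in every AdArmc5 KO library than in every Armc5 flox library, and for the other 7 partners the ratios overlapped. *Polr2a* over *Polr2b*, the largest 2 subunits, went from 1.80 in Armc5 flox to 2.203 in AdArmc5 KO on average. The 5 partners are the same genes whose own FPKM did not overlap. How many of all genes tested would give such a ratio with *Polr2a* was not counted, so the 5 cannot be read as particular to these partners.

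**Figure D4:**
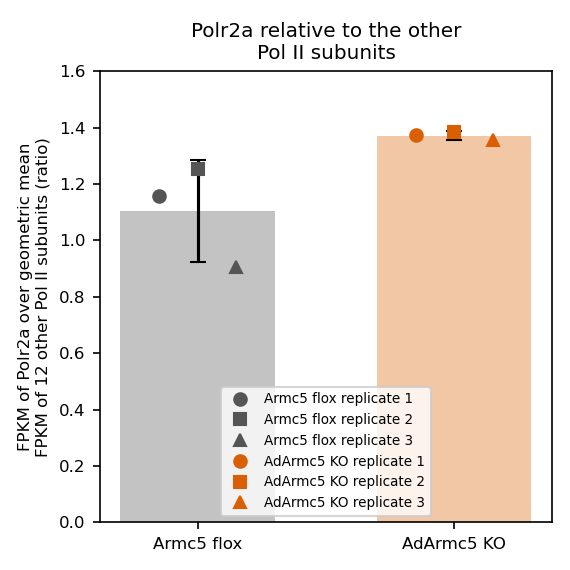
FPKM of *Polr2a* over the geometric mean FPKM of the 12 other *Polr2* genes in each library (points), with the mean of each genotype as a bar and its SD as an error bar (n = 3). The AdArmc5 KO libraries lie between 1.35 and 1.39, above the Armc5 flox libraries at 0.905 to 1.25.

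Genes that act with the polymerases had list medians between −0.03 and −0.09, against −0.03 for all genes tested. The 4 subunits known under other symbols were all below 0 (median −0.08), against 56.5% of all genes tested. Every AdArmc5 KO library was lower for 1 of them, against 5.26% of all genes. This was *Znrd1*, which encodes a small subunit of RNA polymerase I. It was at 17.2, 17.4 and 19.1 FPKM in the Armc5 flox libraries and at 15.6, 15.7 and 16.5 FPKM in the AdArmc5 KO libraries. *Cd3eap* and *Twistnb*, which encode further subunits of RNA polymerase I, had log2 fold changes of −0.10 and −0.06, and *Crcp*, which encodes one of RNA polymerase III, had −0.02. None of these 4 had an unadjusted p under 0.05 by limma.

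Of 18 general transcription factor genes of RNA polymerase II, 12 were below and 6 above 0 (median −0.08), and 4 had every AdArmc5 KO library below every Armc5 flox library, against 56.5% and 5.26% of all genes tested for these counts. The smallest p values were those of *Ercc2* (log2 fold change −0.28) and *Gtf2h3* (−0.23), which encode parts of TFIIH, and of *Tbp* (−0.24), the TATA-binding protein that all 3 polymerases use. *Tbp* was at 10.5, 11.4 and 10.4 FPKM in the Armc5 flox libraries and at 7.11, 10.2 and 9.79 FPKM in the AdArmc5 KO libraries. AdArmc5 KO replicate 1 was the low library here, as for many subunits.

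Of 7 factors of RNA polymerase I, 6 were below 0, against 56.5% of all genes, and 1 above 0 (median −0.03). *Rrn3*, which encodes the factor TIF-IA that brings the enzyme to ribosomal DNA, was at 18.4, 17.3 and 20.4 FPKM in the Armc5 flox libraries and at 16.2, 13.3 and 13.8 FPKM in the AdArmc5 KO libraries. Its groups did not overlap and its log2 fold change was −0.35 with a standard error of 0.13 (limma, unadjusted p = 0.033, adjusted p = 0.98). *Taf1d* and *Taf1c*, which encode parts of the selectivity factor SL1, came next with −0.26 and −0.12.

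Of 17 factors of RNA polymerase III, 15 were below 0, against 56.5% of all genes, and 2 above 0 (median −0.09). *Brf2*, which encodes a subunit of TFIIIB at genes such as that of U6, and *Gtf3c4*, which encodes a subunit of TFIIIC, were lower in every AdArmc5 KO library (log2 fold changes −0.28 and −0.17), 2 of 17 against 5.26% of all genes. *Snapc5*, which encodes a subunit of the snRNA-activating complex, had 0.30, with 31.2 to 41.6 FPKM in Armc5 flox and 39.5 to 54.9 FPKM in AdArmc5 KO. *Maf1*, the repressor of RNA polymerase III, had −0.09. None of the 17 had an unadjusted p under 0.05 by limma.

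Of 11 genes for the assembly and nuclear import of the polymerases, 9 were below 0, against 56.5% of all genes, and 2 above 0 (median −0.06). *Slc7a6os*, the homolog of the yeast import factor Iwr1, had −0.35 with overlapping groups. *Pih1d1* and *Rpap3*, which encode partners in the R2TP co-chaperone that assembles polymerases, were the 2 above 0, with 0.22 and 0.17. *Pih1d1* was at 23.9, 21.1 and 24.1 FPKM in the Armc5 flox libraries and at 28.9, 27.9 and 24.6 FPKM in the AdArmc5 KO libraries, with every AdArmc5 KO library higher (limma, unadjusted p = 0.12, adjusted p = 0.98). The ligase partners *Cul3* and *Rbx1* had log2 fold changes of −0.22 and −0.06 with overlapping groups.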

How the data were processed

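Epididymal WAT of refed mice gave 6 libraries, with genotype and replicate number taken from the submitters' labels and age and feeding from the paper. Each library is counted as a separate mouse. For the mapping to mm10, the authors used TopHat2 2.0.13, Bowtie2 2.2.3 and SAMtools 0.1.19, by the submitters' processing notes. Neither the annotation nor the options for strand and shared reads is given in the sources used here. The authors calculated the deposited FPKM with Cuffnorm (version 2.2.1), which scales fragments by exon length and library. The deposited normalized counts are a signal in which the fragments of a gene are scaled by 1 factor per library. Between 98.4% and 99.0% of those above 0 were whole fragments to within 0.1, which gave the depths. For the rest no whole number was found, so no count model was fitted. The authors' own fold changes and p-values, and 6 deposited columns of per-sample log2 values, were not used.

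The genotypes were compared with limma (version 3.58.1, R version 4.3.3), tested on simulated data, on log2(FPKM + 1) for the 12670 genes whose FPKM reached 1 in 3 or more libraries. Genotype was the only term, with a mean-variance trend, and Benjamini-Hochberg adjustment ran over all genes tested. On this scale the fold change of a low gene is understated. With 3 libraries a genotype, the smallest p of an exact permutation test is 0.1. Counting errors cover the sampling of fragments only.

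All 28 subunit genes enter the counts and medians, and 1 of them is otherwise not reported or drawn here. The others are given with the value of every library for the large and shared subunits, the paralogs and those whose groups do not overlap, and up to 3 genes with the smallest p of each related list. Other list members named, such as *Cd3eap*, *Twistnb*, *Crcp* and *Maf1*, were chosen after their values were seen. The genes, the lists, the motifs and the ratios were chosen with earlier results of these data known. Alternatives were other pseudocounts, filters, scalings and units, limma without the trend, a replicate block and libraries left out.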

Additional observations from a re-analysis of the deposited data

How the results depend on the processing

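Under every alternative, 0 subunits passed an adjusted p of 0.05 by limma (lowest adjusted p 0.78). At an unadjusted p under 0.05 there was 1 subunit (3.35% of all genes), against 5 without a filter (3.54%), 2 with a minimum FPKM of 1 in any 1 library (3.02%), 0 without Armc5 flox replicate 1 and AdArmc5 KO replicate 2 (2.59%), and 1 to 2 with each library left out. Subunits with every AdArmc5 KO library lower numbered 9 (5.26% of all genes), and 9 to 14 with each library left out (7.73% to 14.1%). Such subunits numbered 14 without Armc5 flox replicate 2 (12.8%). They numbered 17 without Armc5 flox replicate 1 and AdArmc5 KO replicates 2 and 3, when 38.4% of all genes did, 7 after rescaling by the median ratio (4.14%) and 6 after quantile normalization (4.38%). Subunits with every AdArmc5 KO library higher numbered 0 (3.54% of all genes), and 0 to 2 with each library left out (5.5% to 11.2%). They numbered 2 without those 3 libraries together (32.9%). Subunits with a log2 fold change below 0 numbered 25 after either rescaling (51.5% of all genes by the median ratio, 56.6% by quantile normalization). They numbered 18 to 26 with each library left out (54.3% to 58.2%). These counts were chosen after seeing the data. Of the 28 log2 fold changes, 16 kept their direction in all 17 settings. Several of these could not change it, as the other filters, the fit without the trend and the replicate block leave each log2 fold change as it was. The normalized counts are scaled by the same factor per library as the FPKM. *Polr3b* was 0.0018 after rescaling by the median ratio and *Polr2k* 0.011 after quantile normalization. *Polr1e* was 0.098 without Armc5 flox replicate 1 and AdArmc5 KO replicate 2, and *Polr1e*, *Polr3g* and *Polr3k* were 0.25, 0.029 and −0.065 without these and the library labelled AdArmc5 KO replicate 3. With each library left out, log2 fold changes that crossed 0 ranged from −0.24 to 0.14 (*Polr1d*), −0.18 to 0.073 (*Polr1e*), −0.21 to 0.040 (*Polr2f*), −0.25 to 0.071 (*Polr2g*), −0.16 to 0.019 (*Polr2j*), −0.17 to 0.14 (*Polr2k*), −0.41 to 0.0016 (*Polr2l*), −0.10 to 0.10 (*Polr3b*), −0.13 to 0.047 (*Polr3c*), −0.21 to 0.0077 (*Polr3f*) and −0.014 to 0.20 (*Polr3k*). The cause was not tested. Where 1 library of a genotype remained, it was assumed to vary like the other genotype.

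With the replicate number as a block, 0 subunits were called and 1 (*Polr2e*) had an unadjusted p under 0.05 by limma. Each number holds 1 library of each genotype, so this block cannot change a log2 fold change, only its error. Over the genes tested, deviations of same-numbered libraries from their genotype means had correlations of −0.53, −0.41 and 0.58. The highest correlation, 0.75, joined Armc5 flox replicate 1 and AdArmc5 KO replicate 2, which both held the epithelial markers. Whether same-numbered mice were littermates cannot be told from these values. The planned tests by edgeR and DESeq2 were not run, because whole fragments could not be recovered for every gene. With 3 mice per genotype, the standard errors of the subunits were 0.10 to 0.24 on the log2 scale.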
